A study of Mus musculus with 9 samples.

Results

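The genes examined are a set of 9 that encode Toll-like receptors, their co-receptors and the proteins that carry their signal: Tlr2, Tlr4, Tlr6, Cd14, Ly96, Myd88, Irak1, Irak2 and Traf6. They were chosen by gene symbol, as every probe set that the platform annotation of either array design assigns to one of these symbols. In all 7 probe sets were found, the same 7 on both designs, against 10833 probe sets with a single symbol on one design and 10276 on the other. They measure 5 of the 9 genes: Tlr6, Cd14, Myd88 and Irak1 with 1 probe set each, and Traf6 with 3. The other 4 genes, Tlr2, Tlr4, Ly96 and Irak2, were matched by no probe set and are not analysed here.

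Toll-like receptors are membrane proteins with which dendritic cells and macrophages sense microbial molecules. Cd14 is an anchored surface protein that hands lipopolysaccharide to the Tlr4 complex, in which MD-2, the product of Ly96, holds the ligand. Tlr6 pairs with Tlr2 to sense lipopeptides. Most of these receptors recruit the adaptor Myd88, which assembles kinases of the Irak family. Irak1 then engages Traf6, a ubiquitin ligase whose activity leads to NF-kB and MAP kinase signalling. In dendritic cells this route is known for switching on cytokines and costimulatory molecules.

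The cells were day 10 dendritic cells of mice, and their total RNA was hybridised to 9 Affymetrix arrays. There were 3 arrays labelled CIITA-/-, whose label names the activator of MHC class II transcription, 3 labelled IAb-/-, whose label names the class II chain encoded by H2-Ab1, and 3 of wild-type B6 cells. Titles number the arrays as experiments 1 to 3. The title of 1 CIITA-/- array gives no number, and it was set beside experiment 2, the number its group lacked. Experiment 1 lies in a table of 3 arrays on one design, and experiments 2 and 3 in a table of 6 arrays on another. The 2 tables are of different array designs, so levels are compared only within a table. The labels name no stimulus, culture factor, sex or age, and leave unsaid how many mice or cultures the arrays of each group stand for. The spread behind each p-value may therefore be technical.

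The targeted genes and the cell type were read first. The H2-Aa probe set, for a class II alpha chain, gave -1893, -1520.3 and -2254 on the CIITA-/- arrays of experiments 1, 2 and 3, against 33825, 51407 and 53578 on the B6 arrays. H2-Ab1 read 30749, 16070.2 and 9621 on the IAb-/- arrays, against 44048, 17261 and 21348 on the B6 arrays, and Ciita read 1822, 1601 and 1639 on the CIITA-/- arrays, against 1045, 623 and 933 on the B6 arrays. The position of these probes in the genes, and so in any deletion, was not used here, and neither of the last pair can check a label. All 10 markers listed for dendritic cells reached the noise limit on at least 1 of the 6 arrays, among them Itgax, Ccr7, Cd83 and Ccl17. The noise limit of a table is a size that 95% of its negative values do not exceed, 1701 for the 6 arrays and 2203 for the other 3. None of 5 T cell, 4 NK cell or 6 mast cell markers measured reached it there, but 3 of 5 B cell, 3 of 10 neutrophil and 2 of 9 macrophage markers did. At the bright end the arrays differed: the Cre spike-in control read 140310.1 and 78903 on the IAb-/- arrays of experiments 2 and 3, against 93949 to 108986 on the other 4.

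The first question is how strongly the 7 probe sets were seen at all. The probe sets of Cd14, Myd88 and Irak1 and 1 of the 3 of Traf6 (104189_at) lay above the noise limit on all 9 arrays. The probe set of Tlr6 and the other pair for Traf6 (104190_at and 98874_at) lay below it on all 9. The levels of these 3 are therefore within noise, and a log2 difference printed for them gives no size. Over all probe sets that are not controls, 60.1% of the 6-array table lay below the limit on every array. All 7 passed the filter on low values and entered the fit.

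**Figure D1:**
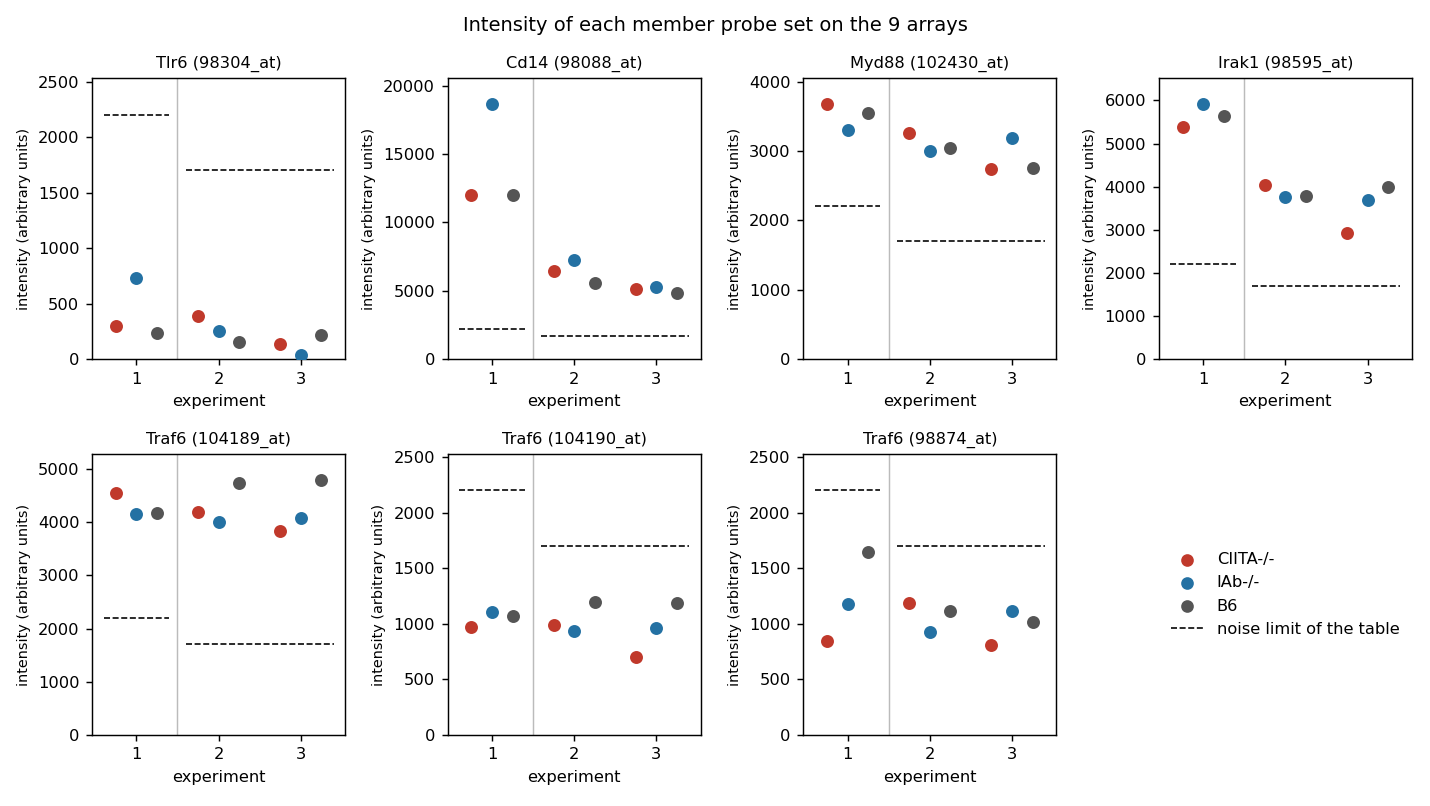
Intensity in arbitrary units (y axis, linear from 0) of each member probe set on each array, by experiment (x axis), with CIITA-/-, IAb-/- and B6 from left to right within an experiment; a point is 1 array and the dashed lines are the noise limits, 2203 for experiment 1 and 1701 for experiments 2 and 3. Cd14, Myd88, Irak1 and Traf6 probe set 104189_at lie above the lines on all 9 arrays, and Tlr6 and the other Traf6 probe sets below them.

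None of the 7 probe sets passed in any of the 3 comparisons. The fit took the 6 arrays of the larger table, with n = 2 in each group; limma's p was adjusted over the whole table by Benjamini-Hochberg, and a probe set counted as called below 0.05. In CIITA-/- against B6, 0 of 7 were called beside 0.0966% of all 9312 probe sets tested, in IAb-/- against B6 0 of 7 beside 0.0107%, and in CIITA-/- against IAb-/- 0 of 7 beside 0.0215%. At an unadjusted p under 0.05 the members likewise gave 0 in each comparison, beside 5.86%, 4.31% and 4.54% of all probe sets. With so few calls over the whole table, the members' count is near the background. The median log2 difference over the members was -0.12 in CIITA-/- against B6, beside 0.014 over all probe sets tested. It was -0.066 beside 0.005 in IAb-/- against B6 and -0.053 beside 0.004 in CIITA-/- against IAb-/-. These medians count Traf6 3 times and include the 3 probe sets within noise, and the first of them is the value of Traf6 98874_at, one of those, so they give no size. Both knockout comparisons use the same B6 arrays. The same sign in all 3 experiments was seen for 0 members higher and 1 lower in CIITA-/- against B6, beside 13.6% and 12.6% of all shared probe sets. It was seen for 1 higher and 1 lower in IAb-/- against B6, beside 12.7% and 12.2%, and for 0 higher and 1 lower in CIITA-/- against IAb-/-, beside 10.4% and 11.9%. The comparisons ask whether loss of CIITA, or of the class II beta chain, goes with a different level of these genes, and the intervals below give the sizes these arrays leave possible.

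**Figure D2:**
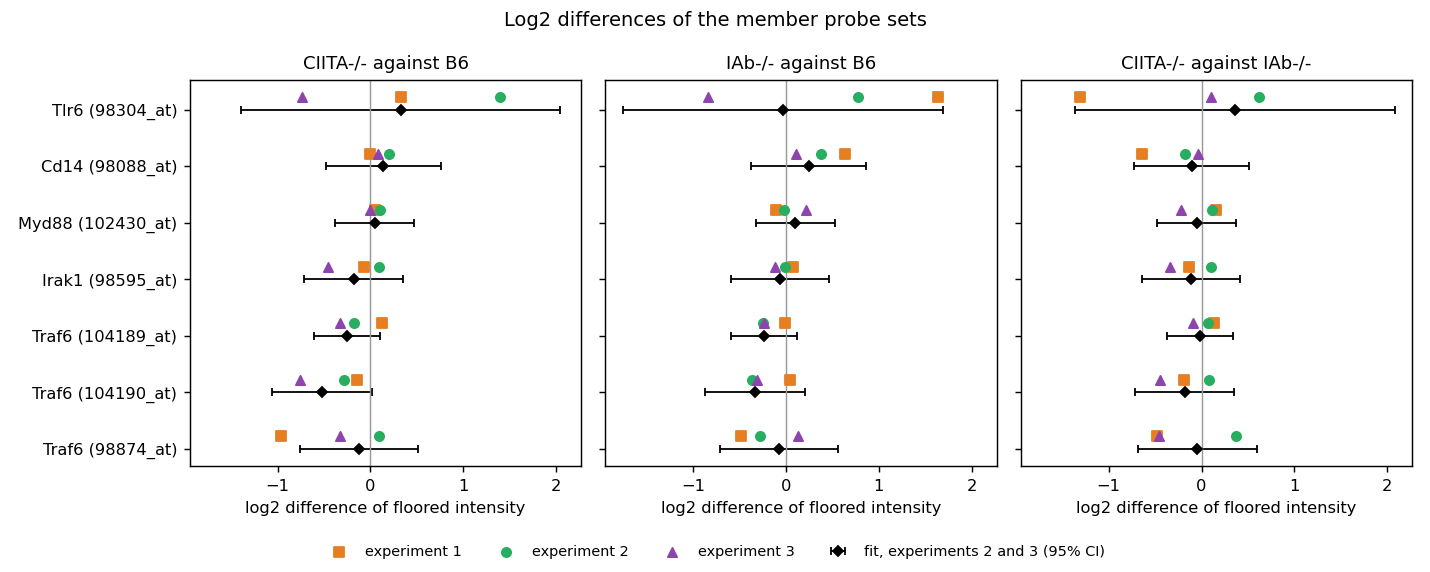
Log2 difference of floored intensity (x axis) of each member probe set (y axis) in the 3 comparisons; diamonds with bars are the limma estimates from experiments 2 and 3 with 95% confidence intervals, and coloured points the differences within experiments 1, 2 and 3. Every interval includes 0, from the narrowest (Traf6 probe set 104189_at) to the widest (Tlr6, -1.40 to 2.05 in CIITA-/- against B6).

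Among the receptors only Tlr6 could be read, and it was not seen above noise. Its probe set gave 296, 393 and 132 on the CIITA-/- arrays of experiments 1, 2 and 3, 734, 256 and 33.6 on the IAb-/- arrays, and 236, 149.8 and 221 on the B6 arrays. The groups overlapped, and the order of the groups was different in each experiment. No level or direction can be given for Tlr6 at this signal.

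Cd14, the co-receptor for lipopolysaccharide, was the brightest of the 7 probe sets over the 6 arrays. It gave 11997, 6412 and 5110.0 on the CIITA-/- arrays of experiments 1, 2 and 3. On the IAb-/- arrays it gave 18658.5, 7249 and 5241. The B6 arrays gave 12008, 5571 and 4849. The IAb-/- array was the highest of its experiment in all 3, while the CIITA-/- array was higher than B6 in experiments 2 and 3 and level with it in experiment 1. Over experiments 2 and 3 the levels averaged 5761 ± 921 in CIITA-/-, 6245 ± 1420 in IAb-/- and 5209.8 ± 510.4 in B6 (SD, n = 2 each), so neighbours in this order differ by less than the larger SD of the pair. Between IAb-/- and B6 the log2 difference was 0.25 (SE 0.24, 95% interval -0.37 to 0.86, limma adjusted p = 1). Within the experiments it was 0.64 in experiment 1, 0.38 in experiment 2 and 0.11 in experiment 3.

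Of all 7610 probe sets tested that both designs share, 12.7% were higher in IAb-/- than in B6 in all 3 experiments, and of the 7 members Cd14 alone was. Without the IAb-/- array of experiment 2 the fitted log2 difference was 0.012, and without that of experiment 3 it was 0.48. The first of these is the array with the brightest spike-in control and the highest Cd14 value of its table. The 99th percentile of intensity on it was 61663, against 53459 on the B6 array of the same experiment. The part of this in the Cd14 values was not tested. Between CIITA-/- and B6 the log2 difference of Cd14 was 0.14 (SE 0.24, interval -0.48 to 0.76, limma adjusted p = 0.954).

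Cd14 is also made by macrophages and granulocytes, whose markers are given beside it. The 9 macrophage and monocyte markers measured summed to 10607 and 13943 in CIITA-/- in experiments 2 and 3, to 9419 and 11762 in IAb-/- and to 9658 and 8373 in B6. Of these, Csf1r and Fcgr1 reached the noise limit there, and Adgre1, Mrc1, C1qa, C1qb, C1qc, Mertk and Marco did not. In experiment 1 the sum was 26811 in CIITA-/-, 22316 in IAb-/- and 30577.5 in B6. Mrc1 lay above the noise limit on every array of that experiment, at 4769.5 in CIITA-/-, 2565.2 in IAb-/- and 8050.7 in B6. Adgre1 lay above it in IAb-/- (2330.5) and B6 (3797.7), but not in CIITA-/- (1936.8). Csf1r and Fcgr1 lay above it on every array of experiment 1 as well. The 10 neutrophil markers summed to 7916 and 6945 in CIITA-/- in experiments 2 and 3, to 11581 and 10123 in IAb-/- and to 6711 and 5873 in B6. Most of the difference between IAb-/- and B6 was Lcn2, at 6575 and 4726 in IAb-/-, against 1970.2 and 1704 in B6. Part of it was Ngp, whose values were below 0, at -855 and -722.5 in IAb-/-, against -2044 and -2050 in B6. The sums of both lists take in values below 0 and values within noise. The experiment 1 sums took each gene's brightest probe set on that design. For Lcn2 and C1qb it was a different probe set from that of experiments 2 and 3. In experiment 1 the neutrophil list summed to 9474 in CIITA-/-, 9667 in IAb-/- and 6128 in B6. The part of these cells in the Cd14 values was not tested, and in bulk RNA fewer cells of a type and less RNA per cell cannot be told apart.

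Over the 6 arrays the genes whose floored log2 values followed Cd14 most closely, among 3304 probe sets with a symbol above noise on all 6, were P4hb (Pearson r = 0.986), Aprt (0.984) and Cmtm7 (0.982). These are a description of 6 arrays that share their scaling. In experiment 1, which was not used for this, P4hb read 1662, 3389 and 3267 in CIITA-/-, IAb-/- and B6, a different order of CIITA-/- and B6 from their near-equal Cd14 values. Aprt read 6409 in CIITA-/-, 6061 in IAb-/- and 6540.1 in B6 there, and was lowest on the IAb-/- array, where Cd14 was highest. Cmtm7 read 15594 in CIITA-/-, 17443 in IAb-/- and 16654 in B6, and was highest on the IAb-/- array.

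Myd88, the adaptor through which most Toll-like receptors signal, varied least among the 4 probe sets above noise over the 6 arrays. It gave 3681, 3255 and 2738 on the CIITA-/- arrays of experiments 1, 2 and 3. The IAb-/- arrays gave 3302, 3002 and 3195, and the B6 arrays 3549.8, 3040.1 and 2754. The groups overlapped, and over the 6 arrays of experiments 2 and 3 the highest value was 1.19 times the lowest, against 1.49 times for Cd14. The log2 difference from B6 was 0.045 in CIITA-/- (SE 0.16, 95% interval -0.38 to 0.47, limma adjusted p = 0.984). It was 0.10 in IAb-/- (interval -0.33 to 0.52, limma adjusted p = 1). On the linear scale these intervals run from 0.769 to 1.39 times the B6 level in CIITA-/- and from 0.797 to 1.44 times in IAb-/-, and a change of larger size in experiments 2 and 3 lies outside them.

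Irak1, the kinase that Myd88 recruits, gave 5379, 4037 and 2914 on the CIITA-/- arrays of experiments 1, 2 and 3. It gave 5919, 3750.2 and 3684 on the IAb-/- arrays, and 5631, 3788 and 3996.5 on the B6 arrays. The CIITA-/- array of experiment 3 was the lowest of its table and that of experiment 2 the highest, so the CIITA-/- arrays spanned all others. The log2 difference of CIITA-/- from B6 was -0.18 (SE 0.20, interval -0.71 to 0.35, limma adjusted p = 0.933), made of 0.092 in experiment 2 and -0.46 in experiment 3. Experiment 1 gave -0.066. In IAb-/- against B6 the log2 difference was -0.066 (interval -0.60 to 0.46, limma adjusted p = 1), and it was 0.072 in experiment 1, the other way.

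Traf6, the ubiquitin ligase downstream of Irak1, is read by 3 probe sets, whose values against B6 varied with the probe set and the experiment. Its probe set above noise (104189_at) gave 4553, 4189 and 3830.2 on the CIITA-/- arrays of experiments 1, 2 and 3. The IAb-/- arrays gave 4151.5, 4002 and 4080.0, and the B6 arrays 4180.3, 4734 and 4803. In experiments 2 and 3 all 4 knockout arrays were lower than both B6 arrays. In experiment 1 the IAb-/- array was level with B6 and the CIITA-/- array was higher. The fitted log2 difference was -0.25 in CIITA-/- against B6 (SE 0.14, interval -0.61 to 0.10, limma adjusted p = 0.931) and -0.24 in IAb-/- against B6 (interval -0.60 to 0.12, limma adjusted p = 1). The experiment 1 differences were 0.12 for CIITA-/- and -0.010 for IAb-/-.

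The other Traf6 probe sets, both within noise, did not behave alike. Probe set 104190_at gave 988 and 704.5 on the CIITA-/- arrays of experiments 2 and 3, 933 and 961 on the IAb-/- arrays and 1201 and 1189.8 on the B6 arrays, again with no overlap between knockout and B6 arrays. In experiment 1 it gave 968 in CIITA-/-, 1103 in IAb-/- and 1071 in B6, so that only the CIITA-/- array was lower than B6. Probe set 98874_at gave 1190.2 and 810.5 in CIITA-/- in experiments 2 and 3, 922 and 1112 in IAb-/- and 1118 and 1020.2 in B6, so its groups overlapped there. In experiment 1 it gave 844.5 in CIITA-/-, 1180.2 in IAb-/- and 1651 in B6, with both knockout arrays lower than B6 in value (log2 -0.97 and -0.48). Non-overlap of 2 arrays against 2 is common in this table: 17.8% of all probe sets were lower on both CIITA-/- arrays than on both B6 arrays, and 15.8% lower on both IAb-/- arrays. A further 21.0% and 16.5% were higher without overlap, which held for 0 members in either comparison. Among the 7 members it was 2 in CIITA-/-, both Traf6, and 3 in IAb-/-, both of these and Irak1. The Traf6 probe sets share a gene symbol and were read on the same arrays, so they are not separate evidence.

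The knockout groups were also set against each other. No member's CIITA-/- arrays lay apart from its IAb-/- arrays in experiments 2 and 3, where 13.3% of all probe sets were higher in CIITA-/- and 12.6% lower without overlap. The log2 difference was -0.11 for Cd14 (interval -0.73 to 0.51), -0.053 for Myd88 (-0.48 to 0.37), -0.12 for Irak1 (-0.65 to 0.41) and -0.013 for Traf6 probe set 104189_at (-0.37 to 0.34), each with a limma adjusted p of 1. In experiment 1 Cd14 was at 11997 in CIITA-/-, against 18658.5 in IAb-/-, a log2 difference of -0.64. The sign was the same in experiments 2 and 3, at -0.18 and -0.037, as for 11.9% of all shared probe sets.

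The promoters of 4 of the 5 measured members were read, Cd14 being not analysed here, because CIITA, as background, acts at class II promoters through factors bound to their conserved X and Y boxes. The core of the Y box, TGATTGG, was searched on both strands in the 250 bases before each annotated start (RefSeq, GRCm38.p6). H2-Aa, whose signal was below 0 on the CIITA-/- arrays, is shown as an example that holds the motif, beside Myd88 and Traf6, members read above noise. The H2-Aa window is chr17:34287824-34288073 (minus strand), the Myd88 window chr9:119340019-119340268 (minus strand) and the Traf6 window chr2:101678170-101678419 (plus strand). Capitals mark TGATTGG, and each line runs 5′ to 3′ toward the start.
H2-Aa: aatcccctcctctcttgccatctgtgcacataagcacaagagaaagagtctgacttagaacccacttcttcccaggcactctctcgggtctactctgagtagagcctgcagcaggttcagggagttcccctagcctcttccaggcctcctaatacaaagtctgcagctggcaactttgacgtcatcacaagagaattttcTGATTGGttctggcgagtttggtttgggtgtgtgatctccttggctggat
Myd88: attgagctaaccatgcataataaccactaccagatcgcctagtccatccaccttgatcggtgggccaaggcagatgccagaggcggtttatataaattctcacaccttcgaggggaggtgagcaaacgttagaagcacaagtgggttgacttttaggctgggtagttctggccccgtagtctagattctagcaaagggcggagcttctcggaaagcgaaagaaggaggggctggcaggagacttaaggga
Traf6: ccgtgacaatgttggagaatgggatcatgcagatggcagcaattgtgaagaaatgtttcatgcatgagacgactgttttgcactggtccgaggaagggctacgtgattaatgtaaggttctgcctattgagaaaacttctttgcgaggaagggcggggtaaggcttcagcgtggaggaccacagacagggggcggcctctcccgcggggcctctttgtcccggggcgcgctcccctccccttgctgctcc
In H2-Aa the motif begins 50 bases before the start, and in H2-Eb1, another class II gene, 61 bases before it. It was found in 0 of the 6 windows of Tlr6, Myd88, Irak1 and Traf6, and in 0 of the 8 windows of the 6 members that have one, against 7.23% of all 32851 windows. The 2 windows of Irak1 overlap almost completely, so they are not separate sequences. A match or its absence describes these letters in these windows and says nothing about binding.

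Around the members, 62 further genes of the pathway were listed by role, of which 40 had a probe set, 19 of them above noise on at least 1 of the 6 arrays, and 35 were tested on their brightest probe set. None was called in any comparison (limma). An unadjusted limma p under 0.05 was seen for 1, 1 and 3 in CIITA-/- against B6, IAb-/- against B6 and CIITA-/- against IAb-/-. Over all probe sets tested the shares were 5.86%, 4.31% and 4.54%. The genes so counted were below the noise limit on all 6 arrays. The median log2 differences of the 35 genes tested were -0.039, 0.0029 and 0.026, close to those of all probe sets.

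By role, the other Toll-like receptors were read by 1 probe set of 9 genes, for Tlr7, which was within noise and not tested. Of 7 accessory proteins and chaperones 6 were measured and 0 called. Unc93b1, which carries nucleic acid-sensing receptors to endosomes, gave 4893 and 5068 in CIITA-/-, against 4352 and 4819 in B6, in experiments 2 and 3 (log2 0.12, limma adjusted p = 0.933). Hsp90b1, the chaperone that folds Toll-like receptors, gave 18691 and 22838 in CIITA-/-, against 20669.5 and 22287 in IAb-/-. Of the IL-1 receptor family, which shares Myd88, 4 of 5 were measured and 0 called, with Il1r1 at 1017 and 1948 in CIITA-/-, against 1543 and 1623 in IAb-/-. All of these values but 1948 lay below the noise limit. Of the other adaptors 1 of 4 was measured, within noise.

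Of the kinases and ubiquitin enzymes 12 of 18 were tested and 0 called. Mapk14, the p38 kinase, gave 4899 and 5189 in IAb-/-, against 4526 and 4079 in B6 (log2 0.23, interval -0.14 to 0.60, limma adjusted p = 1), but 5721 in IAb-/- against 6174.5 in B6 in experiment 1. Ube2v1, a partner of the enzyme that builds ubiquitin chains with Traf6, gave 19089 and 18203 in CIITA-/-, against 15333.5 and 16699.6 in IAb-/-. Ikbke, a kinase that phosphorylates interferon regulatory factors, was lower in value in CIITA-/- than in IAb-/- in all 3 experiments (log2 -0.35, -0.51 and -0.39, limma adjusted p = 1), as were 11.9% of all shared probe sets. Its CIITA-/- values of 1825.5 in experiment 1 and 1603 in experiment 2 lay below the noise limits, so those differences give no size.

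Of the inhibitors 5 of 8 were tested and 0 called. Tollip, which binds Irak1, gave 2751 and 2762 in IAb-/-, against 1980.5 and 2601 in B6 (limma adjusted p = 1). Dusp1, a phosphatase of MAP kinases, gave 11478 and 11659.9 in IAb-/-, against 13518.5 and 12196 in B6, and 15624 against 20131 in experiment 1. Of all shared probe sets 12.2% were likewise lower in IAb-/- than in B6 in all 3 experiments. Tnfaip3, which edits ubiquitin chains, gave 1432 and 2009.9 in CIITA-/-, against 1718 and 2314 in IAb-/-, and the value of 1432 lay below the noise limit. In experiment 1 it gave 1641 in CIITA-/- against 1092 in IAb-/-, the other way, with both values below the limit of that table. All 3 interferon regulatory factors were tested and 0 called. Irf5, which Myd88 engages, gave 35497 and 31111 in CIITA-/-, against 33077 and 29036 in B6, and 35269.8 against 32292 in experiment 1 (log2 0.10 in experiment 2, 0.10 in experiment 3 and 0.13 in experiment 1). Of all shared probe sets 13.6% were higher in CIITA-/- than in B6 in all 3 experiments. The limma adjusted p of Irf5 was 0.951. Of 8 cytokine targets 4 were tested and 0 called. Il6 gave 2321.5 and 2729 in CIITA-/-, against 2874 and 4075 in IAb-/- (log2 -0.44, interval -1.16 to 0.28, limma adjusted p = 1), and 2468.5 against 2442 in experiment 1. Cxcl2, a chemokine for neutrophils, gave 3889 and 2801.5 in CIITA-/-, against 3787 and 3334 in IAb-/-.

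**Figure D3:**
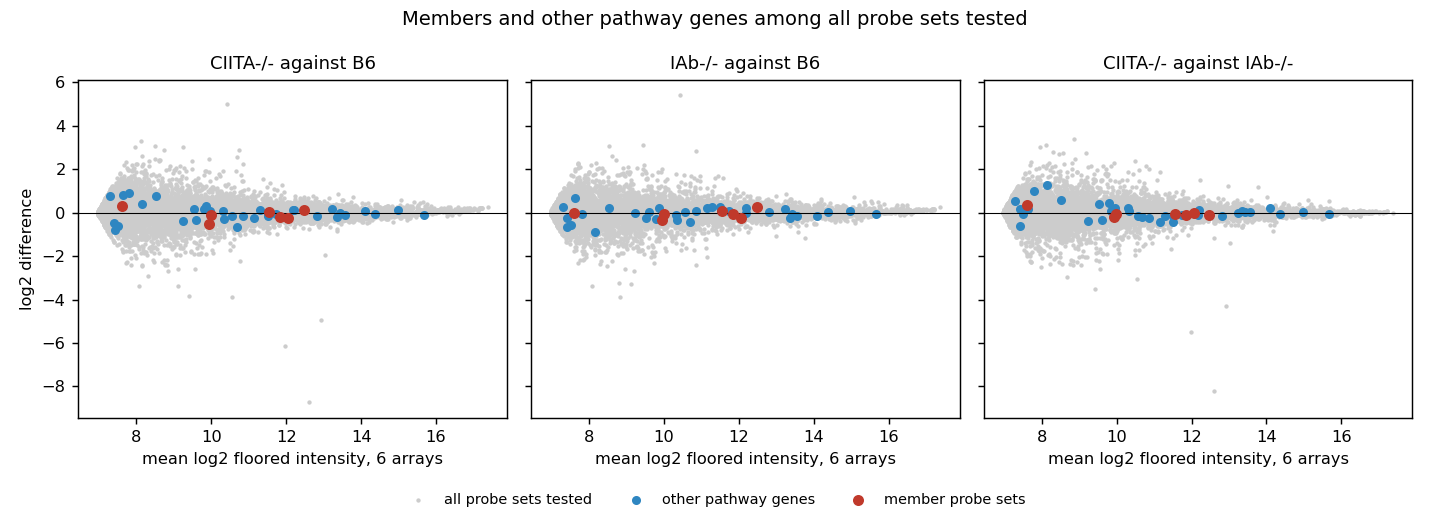
Log2 difference (y axis) against mean log2 floored intensity over the 6 arrays (x axis) for all 9312 probe sets tested (grey), 35 other pathway genes (blue) and the 7 member probe sets (red) in the 3 comparisons. The members lie between -0.52 and 0.33 in CIITA-/- against B6, within the grey cloud at their intensity.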

How the data were processed

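Day 10 dendritic cell RNA was measured on 9 arrays in 3 groups. The authors deposited 1 linear intensity for each probe set on each array. Between 21% and 26.4% of an array's values lie below 0. The algorithm is not given in the labels or files read here. Symbols come from the platform annotation. A floor at each table's 30th percentile (123.5, or 93.2 for experiment 1) was applied before log2, so fold changes of dim probe sets are understated. Probe sets above it on at least 2 of 6 arrays were tested in one fit of 3 groups (lmFit and eBayes, limma 3.58.1, R 4.3.3), with Benjamini-Hochberg adjustment over all 9312. The fit was tested on simulated data with changes in bright probe sets, larger than any member difference. It was not tested on changes of the size seen here. Experiment 1 stayed outside it. The number of arrays limits the precision.

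The fit used no pairing; differences within experiments follow the numbers in the titles, apart from the unnumbered array. The alternatives were a replicate block, all 9 arrays with that block, quantile normalization, a floor at the noise limit, no filter and leaving out each array.

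Named were all member probe sets, up to 3 genes per pathway list with the smallest p above noise, and the 3 genes most correlated with the brightest member. Each named pathway gene is shown only in the comparison, of the 3, that gave it the smallest p. H2-Eb1 and H2-Aa were picked after their values were seen, as were Tlr7 and Lcn2. Members and lists were chosen with earlier results of these data known.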

Additional observations from a re-analysis of the deposited data

How the results depend on the processing

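No member probe set was called (limma) in any comparison under any alternative run. When no array was left out, the smallest limma adjusted p was 0.597. It was that of Traf6 probe set 104189_at in CIITA-/- against B6 with no filter. Unadjusted, its limma p with no filter was 0.012 there and 0.014 in IAb-/- against B6, beside 0.127 and 0.143 in the main fit. It was the only member under 0.05 with no filter, beside 696 and 559 of all 12422 probe sets in these comparisons. Of 96 member values under the settings that left no array out, 92 kept their direction. Most of these could not change. The replicate block, no filter and the floor at the noise limit return the log2 differences of the main fit. Only quantile normalization and the fit of all 9 arrays could move a sign, so the count is no measure of stability. With all 9 arrays and the replicate block, 4 changed sign: Tlr6 in IAb-/- against B6 (0.52) and in CIITA-/- against IAb-/- (-0.20), and Myd88 (0.017) and Traf6 104189_at (0.036) in CIITA-/- against IAb-/-. The replicate block changed no member's call. As a check of that pairing, the differences of experiment 2 minus experiment 3 in each group correlated across probe sets at 0.048 between CIITA-/- and B6, 0.079 between IAb-/- and B6 and 0.215 between CIITA-/- and IAb-/-, so the values show little pairing with B6. A floor at the noise limit leaves Tlr6, Traf6 104190_at and Traf6 98874_at untested.

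Over all probe sets, the calls in CIITA-/- against B6, IAb-/- against B6 and CIITA-/- against IAb-/- were 9, 1 and 2. They became 0, 0 and 0 with the replicate block (606, 491 and 492 at an unadjusted p under 0.05), 10, 3 and 3 with quantile normalization, 3, 0 and 4 with the floor at the noise limit, 14, 5 and 7 with no filter, and 4, 0 and 3 with all 9 arrays and the block. Leaving out 1 array gave 0 to 1, 0 to 0 and 0 to 1. The causes were not tested.

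Leaving out 1 array of a pair leaves a lone array that is assumed to vary like the other groups. The log2 differences that changed sign then ranged, in CIITA-/- against B6, from -0.46 to 1.11 for Tlr6, -0.024 to 0.30 for Cd14, -0.080 to 0.17 for Myd88, -0.42 to 0.053 for Irak1 and -0.40 to 0.16 for Traf6 98874_at. In IAb-/- against B6 they ranged from -0.56 to 0.49 for Tlr6 and -0.21 to 0.059 for Traf6 98874_at. In CIITA-/- against IAb-/- they ranged from -0.43 to 1.14 for Tlr6, -0.34 to 0.13 for Cd14, -0.18 to 0.072 for Myd88, -0.35 to 0.12 for Irak1, -0.077 to 0.052 for Traf6 104189_at, -0.43 to 0.061 for 104190_at and -0.32 to 0.23 for 98874_at. The number of arrays, 2 a group, limits what could be called.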
